A study of Mus musculus with 24 samples.

Results

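The genes described here are 41 genes of fatty acid oxidation and targets of the peroxisome proliferator-activated receptors (PPARs), listed by role and looked up by the symbol of their Ensembl identifier in a table of 55536 genes. Membership asked for 3 or more reads in at least 6 of the 24 libraries, which 39 of the 41 met. Cyp4a31 and Cyp4a14 had no library with 3 reads, with 2 and 3 reads in all libraries together. A filter on low counts left 13505 genes for testing, among them 38 members, since it also dropped Cyp4a32, which had 107 reads in all.

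The libraries came from the distal small intestine (ileum) of C57BL/6N mice of both sexes, 6 animals in each of 4 groups with 3 males and 3 females, 1 animal taken from each cage. CD animals ate a control diet with 10% of energy from fat and HFD animals a high-fat diet with 60%, both for 20 weeks and then for the 10 weeks that followed without drug. CDmetf and HFDmetf animals ate the same diets and drank metformin, a glucose-lowering drug, at 50 mg/kg a day during those 10 weeks. The comparisons asked what the diet changed without and with the drug (HFD vs. CD, HFDmetf vs. CDmetf) and what the drug changed on each diet (HFDmetf vs. HFD, CDmetf vs. CD). Each group enters more than one of these comparisons, so their values are given side by side and are not independent. The high-fat diet served as a model of obesity with insulin resistance, and the tissue was taken whole, so that fewer cells of a type and less RNA per cell cannot be told apart.

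Fatty acids are broken down by beta-oxidation in mitochondria, which take up long chains through the carnitine shuttle, and in peroxisomes, which shorten very long and branched chains. PPAR alpha and delta are nuclear receptors that bind fatty acids and raise transcription of these enzymes, of omega-hydroxylases of the Cyp4a family and of Pdk4 and Angptl4. Absorptive cells of the small intestine, the enterocytes, meet dietary fat first, and the PPAR targets are known to respond to it there.

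Depth ranged from 1829690 to 40606442 reads on genes, with a median of 3467308, and levels are CPM, read counts scaled to the normalized library size. CD M3 stood apart, with 85.4% of its reads in 10 genes led by ribosomal RNA, against 9.22% to 36.6% elsewhere, the highest of these in HFDmetf F2. HFD M2 had 3355 Xist reads and 0 Y-linked reads, and HFD F2 had 1 and 423, so both went against their sex labels. All 8 enterocyte markers had reads in every group. Summed markers of the proximal small intestine ranged from 63.9 CPM in CDmetf M2 to 4083 CPM in HFD M3. Those of the distal part ranged from 162 to 4658 CPM, a wide range for pieces that the study's methods describe as ileum and the labels as small intestine.

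Members were not equally high or variable. Per kilobase of exon, the mean level over the 24 libraries was highest for Hadh, a mitochondrial 3-hydroxyacyl-CoA dehydrogenase, at 75.5 CPM per kb, and for Ucp2, a mitochondrial carrier, at 74.5 CPM per kb. Hsd17b4 (58.6), Acadl (45.5), Acaa2 (44.02) and Cpt2 (38.7 CPM per kb) came next. Cyp4a10 at 0.969 and Acot1 at 0.774 CPM per kb were lowest of those tested. The SD of log2 CPM within groups was 0.21 for Bdh1, the steadiest member, and 2.26 for Acot12, above 99.5% of all genes tested. Cyp4a10 (1.79), Acaa1b (1.09), Pdk4 (0.96) and Angptl4 (0.86) were also among the variable ones, while the median was 0.43 over members and 0.40 over all genes.

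The stretch before the start of transcription is shown for 3 members, from the RefSeq promoter table (GRCm38.p6), which held 33 of the 41. Cyp4a10, Cyp4a31, Cyp4a14, Acaa2, Hsd17b4, Crat, Decr1 and Angptl4 were not in it, so they were not searched. PPARs bind a direct repeat of the half-site AGGTCA with 1 base between, so the windows of 250 bases before each start were searched on both strands for AGGTCANAGGTCA with up to 2 mismatches over the 12 half-site bases. Acot12 is shown because it was the only member with a match among the 33 searched, given in capitals. The match lay on the opposite strand 110 to 98 bases before the start and had 1 mismatch. Acaa1b and Hsdl2 are shown as members with differences by diet described below and no match. The windows are chr13:91741271-91741520 on the plus strand for Acot12, chr9:119157094-119157343 on the minus strand for Acaa1b and chr4:59581313-59581562 on the plus strand for Hsdl2.
Acot12: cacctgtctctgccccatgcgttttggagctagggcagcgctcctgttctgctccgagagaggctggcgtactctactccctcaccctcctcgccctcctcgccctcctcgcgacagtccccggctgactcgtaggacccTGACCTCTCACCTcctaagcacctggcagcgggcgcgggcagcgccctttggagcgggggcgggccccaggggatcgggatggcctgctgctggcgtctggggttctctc
Acaa1b: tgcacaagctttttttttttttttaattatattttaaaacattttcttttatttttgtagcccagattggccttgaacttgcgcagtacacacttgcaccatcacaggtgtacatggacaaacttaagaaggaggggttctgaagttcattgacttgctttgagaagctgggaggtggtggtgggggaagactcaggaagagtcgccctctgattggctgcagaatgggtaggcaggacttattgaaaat
Hsdl2: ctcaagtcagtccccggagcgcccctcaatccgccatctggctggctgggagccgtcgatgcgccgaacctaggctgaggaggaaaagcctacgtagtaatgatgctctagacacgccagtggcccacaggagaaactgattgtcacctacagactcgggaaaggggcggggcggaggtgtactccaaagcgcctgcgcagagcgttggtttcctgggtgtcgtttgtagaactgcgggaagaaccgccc
A match was found for 3.03% of the 33 members and for 3.72% of the 27025 genes in the table. The windows are short, and no match says only that these letters were not in them.

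On the high-fat diet without drug, most of these genes stood higher than on the control diet, with the largest differences for Cyp4a10, Acaa1b, Pdk4, Acot12 and Acot1. None of the 38 passed FDR < 0.05 in HFD vs. CD by edgeR's quasi-likelihood test, nor did any other gene (0% called). At an unadjusted p under 0.05, 17 members were higher and 0 lower, where 2.82% of all genes were higher and 1.93% lower. The members were chosen with earlier results of these data known and did not vary independently of the library. This count and the later ones are therefore no test of the set. The median logFC was 0.43 over the members and 0.0089 over all genes, and 35 of 38 were above 0. Of other tools, limma-voom called 0 members, limma-voom with sample quality weights 1 (Cyp4a10; 0.104% of all genes) and DESeq2 2 (Cyp4a10 and Hsdl2; 0.0889%). Without CD M3, 14 members were higher at that p, against 3.00% of all genes, and the median was 0.33. Without HFD M2 and HFD F2, 16 were higher and 1 lower with a median of 0.47, against 2.30% of all genes higher.

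Markers of other cell types also differed between these groups, and those of position along the intestine were compared too. Of 8 B cell markers, 8 had a logFC above 0 in HFD vs. CD and 7 an unadjusted p under 0.05, with a median of 2.03. Of 8 adipocyte markers 7 were below 0 and 3 of them had such a p, with a median of -2.56. All 7 smooth muscle markers tested were below 0, 2 with such a p and a median of -0.31, and no enterocyte marker had such a p (median 0.09). Of 5 proximal markers 4 were above 0 and 1 below, 1 of the higher ones with such a p, with a median of 0.93. Of 5 distal markers 2 were above 0 and 3 below, with a median of -0.13. Averaged over both metformin arms, 3 proximal markers and 1 distal marker were above 0, with medians of 0.91 and -0.34. The part of these markers in the result was not tested.

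**Figure D1:**
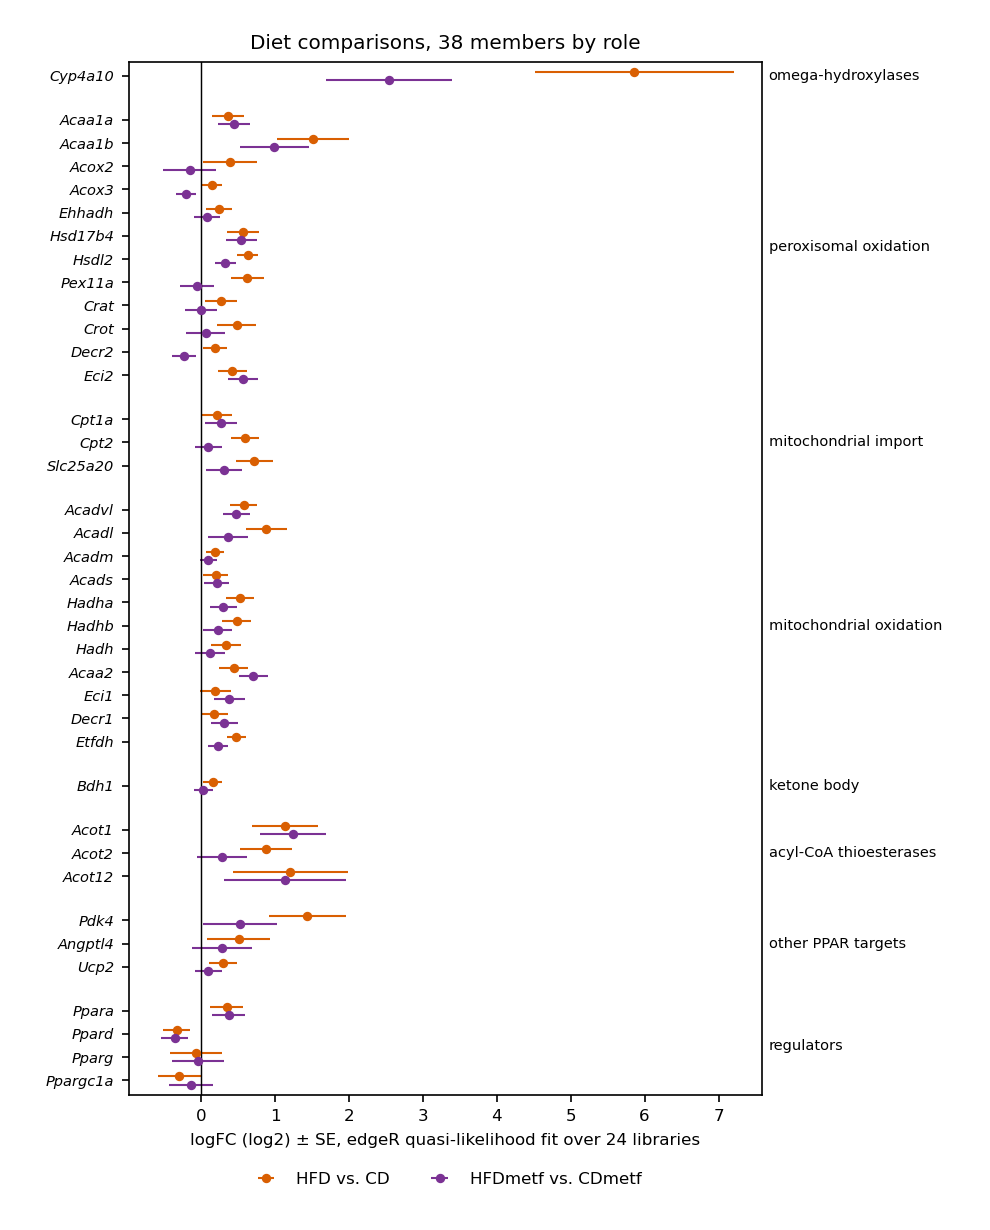
LogFC with its SE for the 38 members tested, in rows by role, for HFD vs. CD (orange) and HFDmetf vs. CDmetf (purple). In HFD vs. CD 35 of 38 points lie right of 0, and Cyp4a10 lies farthest right at 5.86.

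Omega-hydroxylases oxidize the far end of a fatty acid, and Cyp4a10 (ENSMUSG00000066072, chr4:115518264-115533649) is a classical PPAR alpha target. In CD animals Cyp4a10 had 2 reads in CD F1 and 0 in the other libraries. In HFD animals it ranged from 0 CPM in HFD M2 to 4.63 CPM in HFD M3, with a median of 2.81 CPM, and the other libraries lay at 1.29 CPM or higher. Thus every HFD library but HFD M2 lay above all CD libraries. Over pooled reads, 228 against 2, HFD was 62.7 times CD with a 95% exact interval of 17.2 to 521, which covers counting error only. The edgeR logFC of 5.86 (SE = 1.34, FDR = 0.609) depends on the prior count because CD was near 0, and was 7.67 without CD F1. Cyp4a10 was higher in 5 of 6 pairs of animals with the same sex and number by label. Pairs here and below follow the labels, which the sex-linked reads of HFD M2 and HFD F2 contradict.

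Cyp4a32 ranged from 0 to 1.38 CPM in CD and from 0 to 1.26 CPM in HFD, so the groups overlapped. The Cyp4a genes lie in 1 cluster of closely related copies on chromosome 4, so reads can be split or lost between copies and these levels are uncertain.

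Peroxisomal enzymes formed the largest role with 12 genes, of which 5 were higher at an unadjusted p under 0.05 and all had a logFC above 0, from 0.15 to 1.52. Acaa1b (ENSMUSG00000010651, chr9:119148023-119157093), a thiolase that takes the last step of each peroxisomal round, ranged from 1.31 to 3.30 CPM in CD with a median of 1.92. In HFD it ranged from 1.30 to 7.97 CPM with a median of 6.33. HFD M2 was the low library, and the next lowest lay at 5.89 CPM, above every CD animal. Its logFC was 1.52 (SE = 0.49, FDR = 0.995), or 1.71 without HFD M2 and HFD F2. Acaa1b lies close to its near-copy Acaa1a and shares 11.4% of its exon bases with Dlec1 on the other strand, so its counts are uncertain.

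Hsdl2, a peroxisomal protein of the short-chain dehydrogenase family, was steady within CD at 24.6 to 34.7 CPM with a median of 28.4. In HFD it ran from 25.8 CPM in HFD M2 to 56.2 CPM with a median of 47.98. Outside HFD M2 the HFD animals began at 39.5 CPM, above all CD animals, and the logFC was 0.63 (SE = 0.14, FDR = 0.609).

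Hsd17b4, the peroxisomal multifunctional enzyme for branched and very long chains, had medians of 158 CPM in CD and 257 CPM in HFD (logFC = 0.57, SE = 0.21, FDR = 0.995). Pex11a, which takes part in peroxisome division, had medians of 20.8 and 32.4 CPM (logFC = 0.63, SE = 0.22, FDR = 0.995). Both were lowest among HFD animals in HFD M2. Eci2, an enoyl-CoA isomerase of peroxisomes, had medians of 23.1 and 30.9 CPM (logFC = 0.42, SE = 0.20, FDR = 0.995). Crot, which makes the products of peroxisomes into carnitine esters, ranged from 52.2 to 135 CPM in CD and from 68.5 CPM in HFD M2 to 194 CPM in HFD (logFC = 0.48, SE = 0.26). Ehhadh, Crat, Decr2 and Acox3 had a logFC between 0.15 and 0.27, Acaa1a one of 0.36 and Acox2 one of 0.39, all with an unadjusted p above 0.05.

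The carnitine shuttle brings long chains into mitochondria, and 2 of its 3 genes had an unadjusted p under 0.05. Cpt2, which rebuilds acyl-CoA inside, ranged from 51.7 to 100.5 CPM in CD and from 85.5 to 134 CPM in HFD, and it was higher in 6 of 6 pairs (logFC = 0.60, SE = 0.19, FDR = 0.995). Slc25a20, the carrier of acylcarnitine, had medians of 39.7 and 84.2 CPM (logFC = 0.72, SE = 0.25, FDR = 0.995). Cpt1a, the outer and rate-limiting step, ranged from 109.8 to 267 CPM in CD and from 165 to 269 CPM in HFD, so the groups overlapped widely (logFC = 0.21). The 3 steps thus lay in the same direction with different sizes.

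Of the 11 enzymes of mitochondrial beta-oxidation, 6 had an unadjusted p under 0.05 and all had a logFC above 0, with a median of 0.44. Acadvl, the first dehydrogenase for very long chains, ranged from 37.7 to 51.95 CPM in CD and from 37.5 to 82.6 CPM in HFD, where the next lowest library after HFD M2 lay at 62.8 CPM (logFC = 0.58, SE = 0.18, FDR = 0.995). Exons of Dvl2 on the other strand cover 42.9% of the exon bases of Acadvl, and the counted strand is not given in the sources used here. Acadl, the long-chain dehydrogenase, had medians of 53.2 CPM in CD and 114 CPM in HFD (logFC = 0.88, SE = 0.28, FDR = 0.995).

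Hadha and Hadhb encode the subunits of the trifunctional protein and start 272 bases apart on opposite strands (RefSeq). Hadha ranged from 204 to 269.6 CPM in CD and from 222 CPM in HFD M2 to 393 CPM in HFD (logFC = 0.53, SE = 0.19, FDR = 0.995). Hadhb had medians of 59.3 and 94.3 CPM (logFC = 0.49, SE = 0.20, FDR = 0.995). Both thus had a similar logFC and both were lowest among HFD animals in HFD M2.

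Acaa2, the thiolase that ends each mitochondrial round, had medians of 51.5 and 81.9 CPM (logFC = 0.44, SE = 0.19, FDR = 0.995). Etfdh, which passes electrons from these dehydrogenases to ubiquinone, ranged from 63.6 to 84.5 CPM in CD and from 75.4 to 126 CPM in HFD (logFC = 0.48, SE = 0.13, FDR = 0.995). The abundant Hadh ranged from 270.2 to 469 CPM in CD and from 303 to 555 CPM in HFD, so that the groups overlapped (logFC = 0.34, SE = 0.20). Acadm, Acads, Eci1 and Decr1 had a logFC between 0.18 and 0.20. The medium- and short-chain dehydrogenases thus had a smaller logFC than those for long chains, though differences between genes were not tested. Bdh1, which interconverts the ketone bodies, had medians of 60.6 and 69.7 CPM (logFC = 0.16, SE = 0.13).

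Acyl-CoA thioesterases free fatty acids from CoA, and all 3 had a logFC near 1. Acot1 had medians of 1.52 CPM in CD and 2.61 CPM in HFD (logFC = 1.13, SE = 0.45, FDR = 0.995) and its near-copy Acot2 medians of 4.10 and 9.48 CPM (logFC = 0.88, SE = 0.35, FDR = 0.995), which leaves the split of reads between them uncertain. Acot12 spread from 0.990 to 71.1 CPM within CD and from 11.7 to 121 CPM within HFD, so its logFC of 1.21 had an SE of 0.78.

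Pdk4 (ENSMUSG00000019577, chr6:5483351-5496309), the kinase that turns off pyruvate dehydrogenase, ranged from 4.10 to 14.6 CPM in CD and from 5.55 to 38.9 CPM in HFD with medians of 8.34 and 19.5 CPM. In HFD 3 libraries lay above all CD libraries and 3 within their range, HFD M2 lowest. The logFC was 1.44 (SE = 0.52, FDR = 0.995) and moved from 0.68 without HFD F3 to 1.74 without HFD M2, so HFD F3 alone decided much of it. Angptl4, an inhibitor of lipoprotein lipase, and Ucp2 had logFC of 0.51 (SE = 0.42) and 0.30 (SE = 0.18).

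The receptors and their coactivator lay on both sides of 0. Ppard had medians of 176 CPM in CD and 109 CPM in HFD (logFC = -0.33, SE = 0.18), and Ppargc1a, a coactivator, had a logFC of -0.29 (SE = 0.29). Ppara had 45.3 and 49.9 CPM (logFC = 0.35, SE = 0.23) and Pparg 9.94 and 9.91 CPM (logFC = -0.07, SE = 0.35). None of the 4 had an unadjusted p under 0.05.

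No member had all 6 HFD libraries above all 6 CD libraries, where 0.0444% of all genes did, or all below, where 0.0296% did. With HFD M2 and HFD F2 left out because of their sex-linked reads, 11 members had all 4 HFD libraries above all 6 CD libraries, namely Cyp4a10, Acaa1b, Hsd17b4, Hsdl2, Pex11a, Crot, Cpt2, Acadvl, Acadl, Hadha and Etfdh. The share over all genes was 0.526%. HFD M2 was itself the lowest HFD library for many members, so this count rests on its removal. Ppard lay below in the same way, where 0.415% of all genes did. With CD M3 left out too, the counts of members were again 11 and 1, and the shares over all genes were 0.637% and 0.74%.

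**Figure D2:**
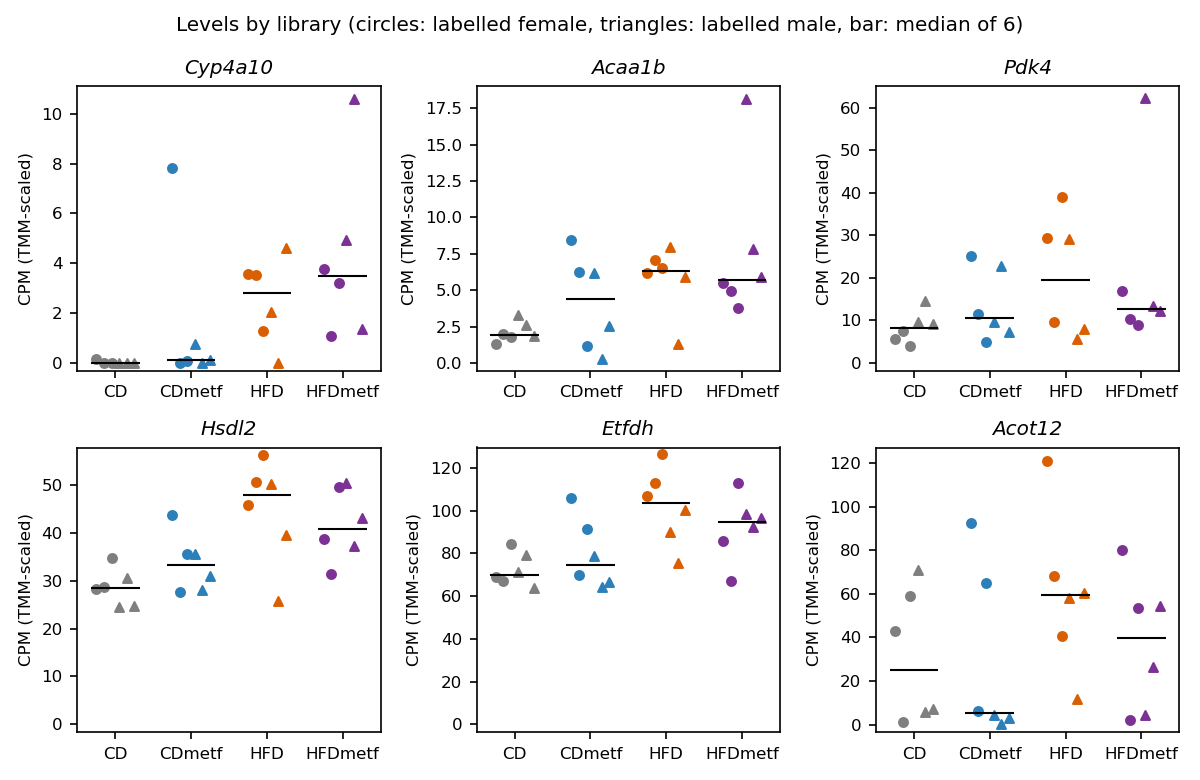
CPM by library for 6 members in the 4 groups, circles for animals labelled female, triangles for animals labelled male and bars at the median of 6. HFD M2 is the low triangle of the HFD group in Cyp4a10 (0 CPM), Acaa1b (1.30 CPM) and Hsdl2 (25.8 CPM), and CDmetf F1 is the high circle of the CDmetf group in Cyp4a10 (7.83 CPM).

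With metformin on both diets, fewer members had an unadjusted p under 0.05 by diet. In HFDmetf vs. CDmetf none passed FDR < 0.05 by edgeR, limma-voom or DESeq2 (0% of all genes by edgeR), and limma-voom with quality weights called 1, Cyp4a10 (0.385% of all genes). At an unadjusted p under 0.05, 8 members were higher and 0 lower, against 3.7% of all genes higher and 3.85% lower. That count of 8 was 4 without HFDmetf M2 and 11 without CDmetf F1, with the shares over all genes in these fits not given here. The median logFC was 0.28 over members and 0.025 over all genes, with 30 of 38 above 0. No member separated all 6 HFDmetf from all 6 CDmetf libraries in either direction, where 0.111% of all genes were higher and 0.0592% lower. Cell type markers differed from those in HFD vs. CD. All 8 enterocyte markers were below 0 (median -0.28, against 0.09 in HFD vs. CD). Of 8 adipocyte markers 6 were above 0 and 2 below (median 0.66, against -2.56). The part of these markers in the result was not tested.

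Acaa2, the mitochondrial thiolase, ranged from 38.1 to 83.2 CPM in CDmetf and from 65.4 to 97.0 CPM in HFDmetf, and was higher in 6 of 6 pairs (logFC = 0.71, SE = 0.19, FDR = 0.561). Cyp4a10 ranged from 0 to 7.83 CPM in CDmetf, with 24 of the group's 35 reads in CDmetf F1 and the next library at 0.777 CPM. In HFDmetf it ranged from 1.10 to 10.6 CPM with a median of 3.49. All HFDmetf libraries thus lay above all CDmetf libraries except CDmetf F1. This gap rests on few reads, since 3 reads amount to 0.777 CPM in CDmetf M1 and to 1.65 CPM in HFDmetf F2. The pooled ratio was 9.42 with a 95% exact interval of 6.56 to 13.9, and the logFC of 2.54 (SE = 0.85, FDR = 0.561) became 4.50 without CDmetf F1.

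Eci2, a peroxisomal enoyl-CoA isomerase, had medians of 24.04 CPM in CDmetf and 35.2 CPM in HFDmetf (logFC = 0.57, SE = 0.20, FDR = 0.600). Acot1 had 2.25 and 3.16 CPM (logFC = 1.24, SE = 0.44, FDR = 0.609), Acadvl 43.9 and 66.8 CPM (logFC = 0.48, SE = 0.18, FDR = 0.626) and Hsd17b4 147 and 245 CPM (logFC = 0.54, SE = 0.21, FDR = 0.626). Hsdl2 had a logFC of 0.33 (SE = 0.14, FDR = 0.631). The groups overlapped for each of these 5 genes, with HFDmetf F2 the lowest HFDmetf library for Eci2, Acadvl, Hsd17b4 and Hsdl2 alike.

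Acaa1b ranged from 0.293 to 8.48 CPM in CDmetf and from 3.801 to 18.1 CPM in HFDmetf (logFC = 0.99, SE = 0.47, FDR = 0.659), with HFDmetf M1 highest. Without HFDmetf M1 its logFC was 0.67. Pdk4 ranged from 4.82 to 25.1 CPM and from 8.83 to 62.3 CPM (logFC = 0.53, SE = 0.50, FDR = 0.810), again highest in HFDmetf M1, and without that library its logFC was 0.016. The Pdk4 value with metformin thus rested on 1 library.

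Averaged over both metformin arms, the diet comparison had the smallest FDR among members at 0.166, for Cyp4a10 (logFC = 4.20, SE = 0.80) and Hsdl2 (logFC = 0.48, SE = 0.10), so none passed by edgeR (0% of all genes). Each was higher in 10 of 12 pairs. At an unadjusted p under 0.05, 18 members were higher and 1 was lower, Ppard, against 3.38% and 2.56% of all genes, and the median logFC was 0.35 over members. The next members by p were Acaa2 (logFC = 0.58, FDR = 0.251), Acadvl (0.53, FDR = 0.266), Etfdh (0.35, FDR = 0.331) and Acot1 (1.19, FDR = 0.332). Acaa1b (1.25, SE = 0.34, FDR = 0.332), Hsd17b4 (0.55, FDR = 0.358), Eci2 (0.50, FDR = 0.376), Acadl (0.62, FDR = 0.481), Hadha (0.41, FDR = 0.493) and Slc25a20 (0.51, FDR = 0.577) followed. Limma-voom called 1 member (Cyp4a10) and DESeq2 5 (Cyp4a10, Hsdl2, Acaa2, Acadvl and Etfdh), where they called 0.0074% and 0.4% of all genes. Limma-voom with quality weights called 9 (these 5 with Acaa1b, Pdk4, Acot1 and Eci2), where it called 1.46% of all genes. All of these members were higher on the high-fat diet.

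CDmetf F1 and HFD M2 moved this count. Without CDmetf F1 edgeR called 1 member and without HFD M2 it called 3. Without HFD M2 and HFD F2 together it called 0, with 17 members higher and 1 lower at an unadjusted p under 0.05. The shares over all genes in these fits are not given here, so whether other genes moved alike cannot be told.

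Some pathway genes outside the list were looked up in 2 further lists of 44 fatty acid oxidation genes and 16 PPAR pathway genes, of which 54 of 60 were tested. In HFD vs. CD 12 of the 54 were higher and 0 lower at an unadjusted p under 0.05, against 2.82% and 1.93% of all genes. In HFDmetf vs. CDmetf 4 were higher and 1 lower, against 3.7% and 3.85%. In the diet comparison averaged over both arms, 9 were higher and 1 lower at that p, against 3.38% and 2.56%, and none passed the FDR. Slc27a2, an acyl-CoA synthetase of very long chains (logFC = 0.83, SE = 0.20, FDR = 0.266), Plin2, which coats lipid droplets (0.53, FDR = 0.376), and Cd36, a fatty acid transporter (0.94, FDR = 0.675), were among the higher ones. Fabp1, the liver-type fatty acid binding protein, ranged from 4.57 to 1709 CPM within HFD alone (logFC = 3.16, SE = 1.06, FDR = 0.573). Oxct1, which uses ketone bodies, was the lower one (logFC = -0.61, SE = 0.21, FDR = 0.580).

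Metformin was compared on each diet. In HFDmetf vs. HFD none of the 38 members passed FDR < 0.05 by edgeR, limma-voom or DESeq2 (0% of all genes by edgeR), and at an unadjusted p under 0.05 none was higher and 1 lower, against 3.09% and 3.78% of all genes. That member was Pex11a, which ranged from 19.6 to 42.98 CPM in HFD and from 10.4 to 26.2 CPM in HFDmetf (logFC = -0.54, SE = 0.23, FDR = 0.620). The groups overlapped, and Pex11a was higher with metformin in 1 of 6 pairs. Cyp4a10 (logFC = 0.93, SE = 0.78), Acaa1b (0.25, SE = 0.46) and Pdk4 (-0.29, SE = 0.50) had an unadjusted p above 0.05. The logFC of Cyp4a10 ran from 0.085 without HFDmetf M2 to 1.57 without HFD M3, and that of Pdk4 from -0.74 without HFDmetf M1 to 0.40 without HFD F3. The median logFC over members was -0.06. Markers of cell types differed in this comparison too. All 8 enterocyte markers were below 0, 1 with such a p (median -0.59), and all 8 adipocyte markers above 0, 0 with such a p (median 1.40). All 8 B cell markers were below 0 with such a p (median -2.52). The part of these markers in the result was not tested.

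In CDmetf vs. CD none passed FDR < 0.05 either (0% of all genes by edgeR), by any of these tools, and 2 members were higher and 0 lower at an unadjusted p under 0.05, against 2.33% and 2.67% of all genes. Cyp4a10 had 35 reads in CDmetf and 2 in CD, a pooled ratio of 10.5 with a 95% exact interval of 2.69 to 90.01 (logFC = 4.24, SE = 1.48, FDR = 0.963). Its logFC was 1.90 without CDmetf F1 and 6.04 without CD F1. Acot2 had medians of 4.10 CPM in CD and 9.17 CPM in CDmetf (logFC = 0.84, SE = 0.35, FDR = 0.963) and was higher in 5 of 6 pairs, with CDmetf F2 highest at 20.6 CPM. Acaa1b and Pdk4 had logFC of 0.78 (SE = 0.49) and 0.63 (SE = 0.51), with an unadjusted p above 0.05.

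Averaged over both diets, metformin gave 0 calls by edgeR (0% of all genes), with 2 members higher (Cyp4a10 and Acot2) and 1 lower (Acaa1a, logFC = -0.35, SE = 0.15, FDR = 0.770) at an unadjusted p under 0.05, against 2.41% and 2.84% of all genes. The diet by metformin interaction gave 0 calls (0% of all genes), none higher and 1 lower at an unadjusted p under 0.05, against 2.75% and 3.01% of all genes. That member was Pex11a (logFC = -0.68, SE = 0.32, FDR = 0.815). The interaction for Cyp4a10 was -3.32 with an SE of 1.74 and for Pdk4 -0.91 with an SE of 0.72. That of Cyp4a10 ran from -5.14 without CD F1 to -1.16 without CDmetf F1, and that of Pdk4 from -1.37 without HFDmetf M1 to -0.20 without HFD F3. The diet differences with metformin were thus not shown to differ from those without it.

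**Figure D3:**
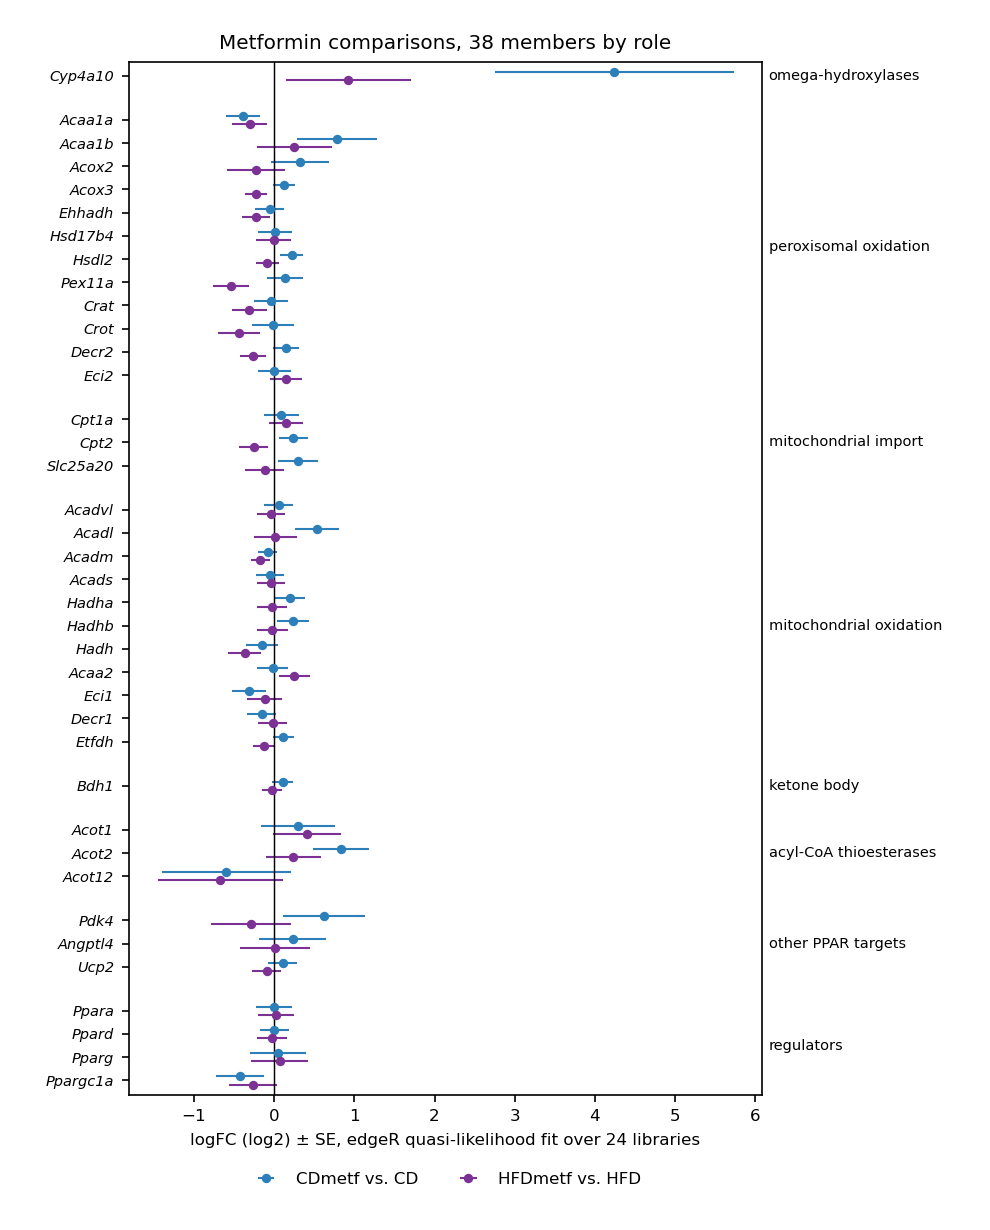
LogFC with its SE for the 38 members tested, in rows by role, for CDmetf vs. CD (blue) and HFDmetf vs. HFD (purple). Apart from Cyp4a10 the points lie on both sides of 0, with medians of 0.10 and -0.06.

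Between the sexes as labelled, 0 members passed the FDR (0.0074% of all genes), with 3 higher and 2 lower in females at an unadjusted p under 0.05, against 3.27% and 3.97% of all genes. Acot12 (logFC = 1.22, SE = 0.58), Eci1 (0.38, SE = 0.15) and Hsd17b4 (0.33, SE = 0.15) were the higher ones and Angptl4 (-0.77, SE = 0.30) and Ppard (-0.30, SE = 0.13) the lower ones, with FDR from 0.655 to 0.681. The sexes are those of the labels, which the sex-linked reads of HFD M2 (labelled male) and HFD F2 (labelled female) contradict. The diet effect in males minus that in females gave 0 calls (0% of all genes) and no member at an unadjusted p under 0.05 in either direction, against 1.24% of all genes in each. Hsdl2 had a diet logFC of 0.49 (SE = 0.14) in males and 0.46 (SE = 0.14) in females, and Acaa1b 1.36 (SE = 0.46) and 1.02 (SE = 0.45). The difference for Cyp4a10 was 3.08 with an SE of 2.56.

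The members did not vary independently of the library. HFD M2 was the lowest of the 6 HFD libraries for 22 of 38 members (57.9%) and for 18.1% of all genes tested, and it was the highest for none. HFDmetf F2 was the lowest of its group for 25 members (65.8%) and for 25.2% of all genes, and CD M3 for 16 (42.1%) and 22.9%. CDmetf M2 was the lowest for 18 members (47.4%, 18.6% of all genes). At the other end CDmetf F1 was the highest of its group for 22 members (57.9%) and for 19.1% of all genes, and HFDmetf M1 for 13 (34.2%) and 19.6%. Each group thus held a library in which many members were low at once.

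**Figure D4:**
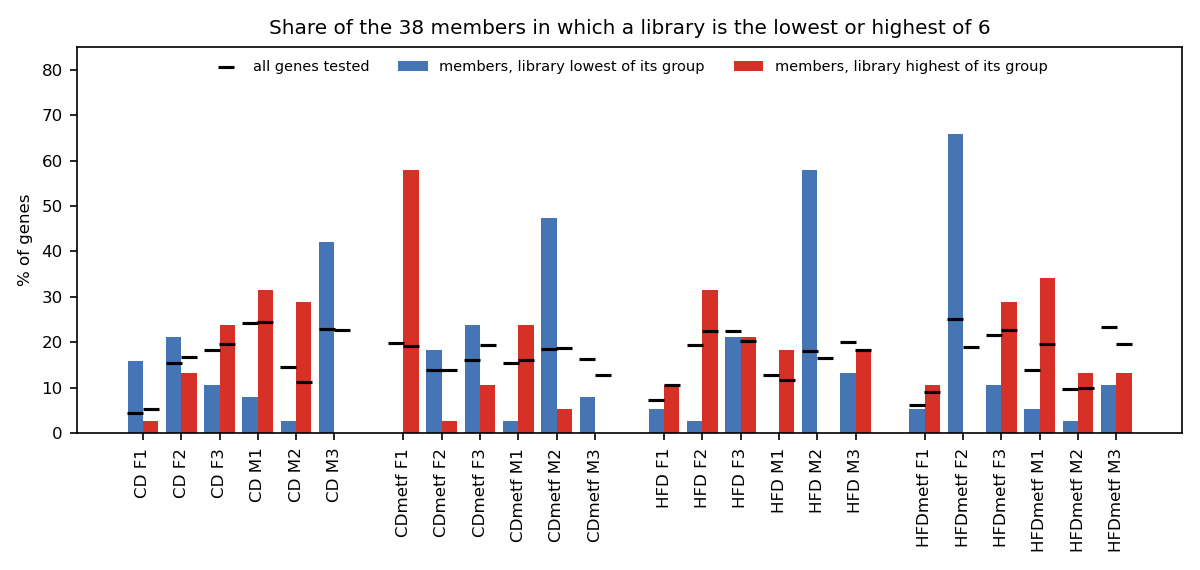
Share of the 38 members, in percent, for which a library is the lowest (blue) or the highest (red) of the 6 in its group, with a dash for the same share over all 13505 genes tested. The tallest bars are the blue ones of HFDmetf F2 (65.8%) and HFD M2 (57.9%) and the red one of CDmetf F1 (57.9%).

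Markers of cell type and position differed between these libraries, and their part in the result was not tested. Summed enterocyte markers were lowest in HFDmetf F2 (5698 CPM, group median 16865) and, within CD, in CD M3 (9779 CPM, group median 23957). HFDmetf M1 was also low in them at 7133 CPM, although it was the highest of its group for 13 members and the lowest for 2, and HFD M2 at 22030 CPM lay near its group median of 23775. Proximal markers were lowest in their groups in HFD M2 (615 CPM, group median 1681), HFDmetf F2 (84.1 CPM, 1202) and CDmetf M2 (63.9 CPM, 147), while CDmetf F1 had 3122 CPM. They were also lowest of their group in CD M2 (122 CPM, 1314), which was the lowest CD library for 1 member and the highest for 11, and they were at 96.2 CPM in HFDmetf M1. Low proximal markers were seen both in libraries with many low members and in libraries with few, and their part was not tested. Adipocyte markers were highest in HFDmetf F2 at 471 CPM, with HFDmetf M1 at 465 CPM. With group, sex and replicate number in the fit, the level of each marker list was therefore added as a term and its slope tested in every gene, a test chosen after the data were seen.

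On the enterocyte markers, 10 members had a positive slope and 1 a negative one at FDR < 0.05, where 13.8% and 9.03% of all genes did. Crat, which moves acyl groups onto carnitine, had a slope of 0.60 (SE = 0.09, FDR = 9.88e-05), in log2 per log2 unit of marker level. Ppargc1a (0.76, SE = 0.15, FDR = 0.00109), Decr2 (0.41, SE = 0.08, FDR = 0.00149), Crot (0.64, SE = 0.13, FDR = 0.00194), Acaa1a (0.51, SE = 0.11, FDR = 0.002) and Hadh (0.45, SE = 0.10, FDR = 0.00378) followed. The others were Acot12 (1.88), Hsd17b4 (0.38), Pex11a (0.40) and Ppara (0.41), so that 6 of the 10 were peroxisomal genes. Pdk4 ran the other way at -0.86 (SE = 0.28, FDR = 0.0299). Hsdl2, one of the leading members by diet, had a slope of 0.01 and Etfdh one of 0.09, neither passing the FDR, and the slopes of Cyp4a10 (0.50, SE = 0.64) and Acaa1b (-0.43, SE = 0.31) did not pass either.

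On the smooth muscle markers 0 members had a positive slope and 7 a negative one (Acaa1a, Pex11a, Crat, Crot, Hadh, Acot12 and Ppargc1a), where 9.65% and 7.32% of all genes did. On the adipocyte markers no member passed by edgeR, where 1.96% of all genes were positive and 0.659% negative by edgeR. DESeq2 called 5 members, and its share over all genes is not given here, so that count has no background. On the B cell markers none passed by edgeR, limma-voom or DESeq2, where 1.44% and 0.0222% of all genes did.

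On the ratio of proximal to distal markers, 4 members had a positive slope and 2 a negative one, where 4.63% and 3.46% of all genes did. Acot12 had the steepest at 0.47 (SE = 0.07, FDR = 0.000354), with Ppargc1a (0.15, SE = 0.03, FDR = 0.00555), Hadh (0.08, FDR = 0.0312) and Eci1 (0.09, FDR = 0.0434). Angptl4 (-0.16, SE = 0.05, FDR = 0.0283) and Acads (-0.07, SE = 0.02, FDR = 0.0298) had the negative slopes, and Cyp4a10 (0.30, SE = 0.10, FDR = 0.0575) did not pass. Acot12 and Ppargc1a passed under all 31 alternatives run for this slope, while the count of members fell from 6 to 2 without HFD F3 or without HFDmetf M1.

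**Figure D5:**
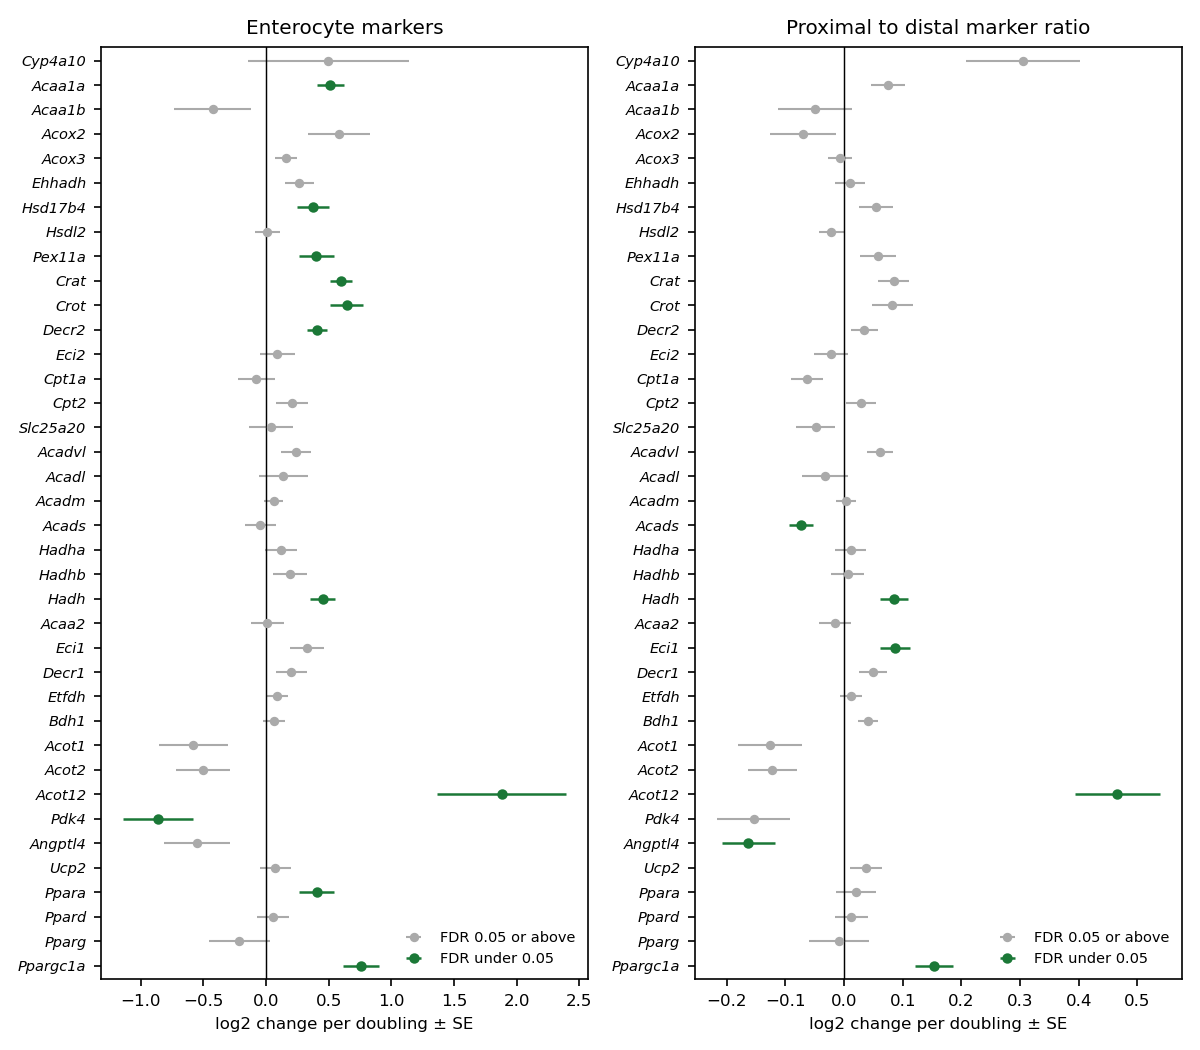
Slope with its SE for the 38 members, in log2 per log2 unit of the summed enterocyte markers (left) and of the ratio of proximal to distal markers (right), green where FDR is under 0.05. On the left 11 members are green and on the right 6, with Acot12 farthest right in both at 1.88 and 0.47.

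With each marker level held in the fit, the diet comparison averaged over both arms kept its direction for Cyp4a10. Its logFC was 4.38 with the enterocyte markers and 4.22 with the proximal to distal ratio, and it passed in both by edgeR (FDR = 0.0364 and 0.0268). With the smooth muscle, adipocyte and B cell terms Cyp4a10 did not pass, with FDR of 0.230, 0.175 and 0.0894. At an unadjusted p under 0.05, 24 members were higher and 1 lower with the enterocyte term, where 5.98% of all genes were higher. With the ratio 20 were higher (2.99% of all genes) and 2 lower, Ppard and Ppargc1a. With the smooth muscle term 16 were higher (4.49%) and 2 lower, with the adipocyte term 22 (3.91%) and 1, and with the B cell term 18 (3.51%) and 1. The B cell markers differed with diet in opposite directions without and with metformin (median logFC of 2.03 in HFD vs. CD and -2.74 in HFDmetf vs. CDmetf). With the B cell term 2 members were higher in HFDmetf vs. CDmetf at that p, against 3.71% of all genes, and 18 in HFD vs. CD, against 3.51%, and the part of B cells in the result was not tested.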

How the data were processed

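RNA-seq was made from 24 intestinal samples, 6 in each of the CD, CDmetf, HFD and HFDmetf groups (3 males and 3 females by label). Per the study's methods, ribosomal RNA was depleted, directional libraries were sequenced, and the reads were trimmed with Trimmomatic 0.39, mapped to the mouse genome GRCm38 with STAR 2.5.3a and counted per gene. Which annotation release and which strand were counted is not given in the sources used here. The deposited values are raw read counts per Ensembl gene from the authors, 1 column for each of the 24 animals. Symbols came from GENCODE M21, which held 55450 of the 55536 IDs. Rows that name no gene took 35.5% to 75.7% of the reads in the table and were left out.

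Counts were tested with edgeR 4.0.16 in R 4.3.3 (TMM, filterByExpr, quasi-likelihood F test) in a model of group, sex and number of the replicate that left 17 residual degrees of freedom, and P-values were adjusted by Benjamini-Hochberg (FDR) over 13505 genes. LogFC and its SE are log2, and levels are CPM of the TMM-scaled library. The diet effect by sex came from a fit with 8 groups and 14 residual degrees of freedom. Pooled-read ratios have exact 95% intervals that cover counting error only. The script was tested on simulated data. DESeq2 1.42.0, limma 3.58.1, other filters, scalings and terms, and fits without single animals were alternatives. Slopes on marker lists and the fit without 4 libraries were added after the data were seen.

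The replicate numbers stand in for the blocks in time that the study used, which the labels do not state. Every member was named with its level or in its role, with values for Cyp4a10, Acaa1b, Pdk4 and up to 12 members at an unadjusted p under 0.05 in each comparison. The members and lists were chosen with earlier results of these data known. P-values set each difference against the spread between animals that the model leaves. The values of 1 gene of the further pathway lists are not reported here.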

Additional observations from a re-analysis of the deposited data

Results flagged for a closer look

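In 19 of 152 groups of 6 animals, 1 for each member and group, the highest or lowest library lay far from the other 5, by a gap that chance gives in about 1 in 20 groups. CDmetf F1 was far above its group for Cyp4a10 (7.83 CPM, next 0.777), Cpt2 (130.2 CPM, next 87.8) and Acadvl (75.4 CPM, next 48.7). HFD M2 was far below for Acaa1b (1.30 CPM, next 5.89), Ehhadh (67.2 CPM, next 96.5) and Hadha (222 CPM, next 333). HFDmetf F2 was far below for Acadvl (34.6 CPM, next 62.6) and Hadha (175 CPM, next 341). HFDmetf M1 was far above for Acaa1b (18.1 CPM, next 7.86), Pdk4 (62.3 CPM, next 17.0) and Angptl4 (61.9 CPM, next 27.8).

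Single values apart from their group were Cyp4a10 in CD F1 (0.164 CPM, others 0), Eci2 and Acot1 in HFD F3 (46.7 CPM, next 31.5, and 5.91 CPM, next 3.54), Bdh1 in HFDmetf M2 (91.9 CPM, next 68.5) and Acot2 in CDmetf F2 (20.6 CPM, next 10.4). Pparg stood high in CD F2 (19.5 CPM, next 11.0) and in HFD M3 (24.4 CPM, next 11.96), and Ppargc1a in HFD M3 (140.1 CPM, next 81.1).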

How the results depend on the processing

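Of 3852 alternative values for 99 results, 3711 kept their direction and side of the threshold or, for counts, lay within 1.5 times. Members called in HFD vs. CD were 0 by edgeR, 1 with sample quality weights and 2 by DESeq2, and in HFDmetf vs. CDmetf 1 with quality weights. In the diet comparison over both arms they were 1 by limma-voom, 9 with quality weights, 5 by DESeq2, 1 without the filter on low counts and 1 each with the enterocyte and the proximal to distal term, and 0 to 3 without single animals. Slopes called on enterocyte markers were 6 without CD M3, HFD M2, HFD F2 and HFDmetf F2, and 7 (without HFDmetf M1) to 11 without single animals. Those on smooth muscle markers were 12 without the replicate block and 4 without HFD M2 and HFD F2, those on adipocyte markers 5 by DESeq2 and 1 without the block, and those on the proximal to distal ratio 11 without the block and 2 to 7 without single animals (3 without CD F2, CD M1 or CDmetf F3, and 2 without HFD F3 or HFDmetf M1). The shares over all genes for these slope alternatives and for the fits without single animals are not given here. The causes were not tested.

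Some logFC near 0 changed sign. In HFDmetf vs. CDmetf, Bdh1 was -0.018 without the filter, -0.063 with the B cell term, -0.032 with the proximal to distal term and -0.065 to 0.14 without single animals, Hadh was -0.028 with the proximal to distal term and Ucp2 -0.0031 (without CDmetf F3) to 0.24 without single animals. In HFDmetf vs. HFD, Acaa1b was -0.042 with the enterocyte term and -0.0065 to 0.48 without single animals, and Pdk4 -0.74 to 0.40. For metformin over both diets, Pdk4 was -0.17 with the enterocyte term, -0.0092 with the smooth muscle term, -0.0049 with the proximal to distal term, -0.075 without HFD M2 and HFD F2, and -0.052 to 0.50 without single animals. In females against males, Cyp4a10 was -0.16 with the smooth muscle term, -0.053 with the proximal to distal term and -0.38 to 0.99 without single animals. The fit on only the samples compared gave no value for the interaction and the averaged comparisons.

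Of 72 pairs of animals with the same number in different groups, 38 correlated above 0.1 in their deviations (mean r = 0.130), against 31 of 144 with different numbers (mean r = -0.064), and 19 of 24 libraries correlated best with their own number. Not every pair did so, and the pairs reuse the same 24 libraries and are not independent, so this is no test. The study describes blocks in time that each held all groups, but the labels do not tie the numbers to them. What animals of a number share was not tested. Without the replicate block, 0 members were called in the group comparisons, and 16 (HFD vs. CD), 7 (HFDmetf vs. CDmetf) and 15 (both arms) were higher at an unadjusted p under 0.05, against 2.16%, 3.15% and 2.45% of all genes. Low depth limits Cyp4a10 and Cyp4a32 most, where 3 reads per library is the limit that a count of 0 allows.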
